A study of Mus musculus with 6 samples.

Results

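Transcripts whose symbols end in "os", for opposite strand, are named after a gene that lies on the other strand of the same chromosome. The members described here were the rows of the deposited expression table whose symbol started with a capital letter, went on for at least 3 more characters and then ended in os, with or without a final digit. There were 12 such rows among the 23284 rows of the table: Dio3os, Dnm3os, Emx2os, Foxl2os, Otx2os1, Pax6os1, Ppifos, Six3os1, Slc7a6os, Vax2os1, Vax2os2 and Zbtb8os. The pattern reads the symbol and no measured value. RNA-seq had been made from ventricles of mouse hearts at embryonic day (E) 9.5, and asked what differs when the lncRNA Tbx5ua, which is transcribed away from the Tbx5 promoter, is knocked down. The labels give the strain of all embryos as C57BL/6, and the study describes the edited ES cells as C57BL/6 J-derived. The WT group held 3 libraries from embryos made from wild-type ES cells, and the KD group (Tbx5ua -/-) 3 libraries from embryos in which both Tbx5ua alleles carry inserted polyadenylation sites that stop transcription early. All embryos of both groups were made by tetraploid complementation, in which injected ES cells form the whole embryo proper. More than 1 KD ES cell line was made in the study, and the labels do not say which line gave which embryo. The table gives a single fpkm value (mapped fragments of a gene, scaled to its transcript length and to all mapped fragments) for each group. No SD, replicate spread or new test could therefore be computed from these values, and every comparison below is between 2 group values.

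Long noncoding RNAs (lncRNAs) are RNA polymerase II transcripts without a long open reading frame. When an lncRNA starts close to the start of a gene on the other strand and runs away from it, the pair is called divergent or head to head, and such pairs are common at genes for developmental transcription factors. A transcript can also run toward its neighbor, so that the 3′ ends face each other, with or without overlap, which is called tail to tail here, or it can lie inside the neighboring gene. The comparison addressed here is whether transcripts named for such an arrangement differed between WT and KD ventricles, and how their levels stood to those of the genes they are named after.

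The symbol pattern did not pick lncRNAs alone. RefSeq lists 10 of the 12 rows as noncoding and 2, Slc7a6os and Zbtb8os, as protein coding, and GENCODE release M21 does the same. Slc7a6os is the mammalian counterpart of yeast Iwr1, which takes part in nuclear import of RNA polymerase II. Zbtb8os encodes archease, a cofactor of the tRNA ligase complex. These are protein-coding genes that carry an os symbol because of their position, and they are called opposite-strand named genes, not lncRNAs, in what follows. Vax2os1 and Vax2os2 are both older symbols of a single RefSeq gene, Vax2os, so the 12 rows stand for 11 RefSeq genes. The 12 rows are named after 11 genes. For 10 of these genes the symbol itself is in the table. Zbtb8 is not a row of the table, and RefSeq gives it as an older symbol of Zbtb8b, which was used as the gene Zbtb8os is named after. Zbtb8a, which lies between Zbtb8os and Zbtb8b, is given beside it.

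All 12 rows were annotated on the strand opposite to the gene they are named after. In the GENCODE annotation of mouse build GRCm38, 8 rows lay head to head with it, 1 lay inside it and 3 lay tail to tail with it. The head-to-head rows were Dio3os, Emx2os, Foxl2os, Otx2os1, Pax6os1, Six3os1, Vax2os1 and Vax2os2, and the nearest annotated 5′ ends within these pairs were between 11 and 1740 bases apart. All of these but Dio3os overlap the span of the gene at its 5′ end. Emx2os, Otx2os1, Six3os1 and Foxl2os share 264, 154, 106 and 12 exon bases with it. Dnm3os lay inside Dnm3. The tail-to-tail rows were Ppifos, which overlaps Ppif, Slc7a6os, which is 2010 bases from Slc7a6, and Zbtb8os, which is 71217 bases from Zbtb8b with Zbtb8a between them. The same 3 rows were the members with a mean of the group values of at least 0.5 fpkm. None of the 8 head-to-head rows reached that level, and neither did Dnm3os. The arrangement was read from the annotation and the level from the table, and with 12 rows their relation is given as a count.

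The sequences that bear on the 3 measurable members are the 5′ exon of Ppifos and the upstream regions of Slc7a6os and Zbtb8os, taken from GENCODE M21 transcripts and from RefSeq promoter windows of build GRCm38.p6. The Ppifos transcript has 3 exons and 1159 bases. Its exon 1, at chr14:25701045-25701282 on the minus strand, is the only exon that shares no base with an exon of Ppif, and it is shown because reads there are not shared with Ppif. It lies 576 bases beyond the annotated end of Ppif.
Ppifos exon 1: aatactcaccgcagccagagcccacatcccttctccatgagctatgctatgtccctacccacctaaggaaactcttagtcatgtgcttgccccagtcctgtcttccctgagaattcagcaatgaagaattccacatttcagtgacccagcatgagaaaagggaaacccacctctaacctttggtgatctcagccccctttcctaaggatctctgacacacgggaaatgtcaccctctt

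Slc7a6os does not share a start with Slc7a6. Its 5′ end faces that of Prmt7, a protein arginine methyltransferase gene, and the RefSeq starts are separated by 120 bases, while the nearest 5′ ends in GENCODE are 1 base apart. These bases, at chr8:106210934-106211053, are given in the direction of Slc7a6os and hold the reverse complement of a GC box, in capitals, at position -49 from the Slc7a6os start.
Slc7a6os to Prmt7: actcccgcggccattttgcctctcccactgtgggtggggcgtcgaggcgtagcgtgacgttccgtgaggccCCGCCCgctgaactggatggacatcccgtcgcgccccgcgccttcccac
Likewise the 5′ end of Zbtb8os faces that of Rbbp4, which encodes a histone-binding chromatin protein, with 597 bases between the RefSeq starts and 325 bases from one nearest 5′ end to the other in GENCODE. The 250 bases before the RefSeq start of Zbtb8os, at chr4:129335718-129335967 on the plus strand, hold a TATA box sequence, in capitals. It is at position -124 from that start. The most upstream GENCODE start of Zbtb8os, at chr4:129335695, lies before this whole stretch.
Zbtb8os upstream: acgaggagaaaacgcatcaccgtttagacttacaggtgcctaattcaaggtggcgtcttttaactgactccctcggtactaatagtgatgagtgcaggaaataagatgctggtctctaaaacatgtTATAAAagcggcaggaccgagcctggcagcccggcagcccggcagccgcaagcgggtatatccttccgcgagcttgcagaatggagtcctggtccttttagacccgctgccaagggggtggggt

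Promoter windows from 250 bases before to 50 bases after the start were found for 9 of the 11 RefSeq genes, all but Emx2os and Otx2os1. They were searched on both strands for CCAAT, for the GC box GGGCGG, for the TATA box TATAAA, for the ETS factor motif CCGGAA and for the T-box motif AGGTGTGA. GGGCGG was found in 6 of the 9 genes (Dio3os, Foxl2os, Six3os1, Slc7a6os, Vax2os and Zbtb8os) and in 35.7% of 32851 RefSeq promoter windows of the same length. CCAAT was found in 3 (Pax6os1, Six3os1 and Vax2os), against 37.4% of all windows. TATAAA was found in Zbtb8os alone, against 13.6%, and CCGGAA in Slc7a6os alone, against 14.9%. AGGTGTGA was in none of the 9, and in 1.28% of all windows. The Ppifos window held 3 CpG dinucleotides and that of Dnm3os held 5, against a median of 7 over all windows. The windows of the other members held more, from 9 in a second Vax2os window to 53 in Dio3os, and those of Slc7a6os and Zbtb8os held 30 and 19. A match is a description of letters in a window and not a binding site.

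The 12 rows fell into a measurable, a low and a zero level. Slc7a6os, Zbtb8os and Ppifos were at 2.33 fpkm or more in both groups. A further 5 rows were above 0 in at least 1 group but at 0.111 fpkm or less in both, and 4 rows (Otx2os1, Six3os1, Vax2os1 and Vax2os2) were listed at 0 in both. Thus 3 of 12 members had a mean of at least 0.5 fpkm, against 53.0% of all rows. In bulk ventricle RNA, fewer cells of a type and less RNA per cell cannot be told apart. Cuffdiff marked 9 of the 12 rows as having too few reads for its test, all of them members under 0.5 fpkm. The library sizes are not given in the table, so the depth is unknown and no upper limit can be put on a value listed at 0.

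**Figure D1:**
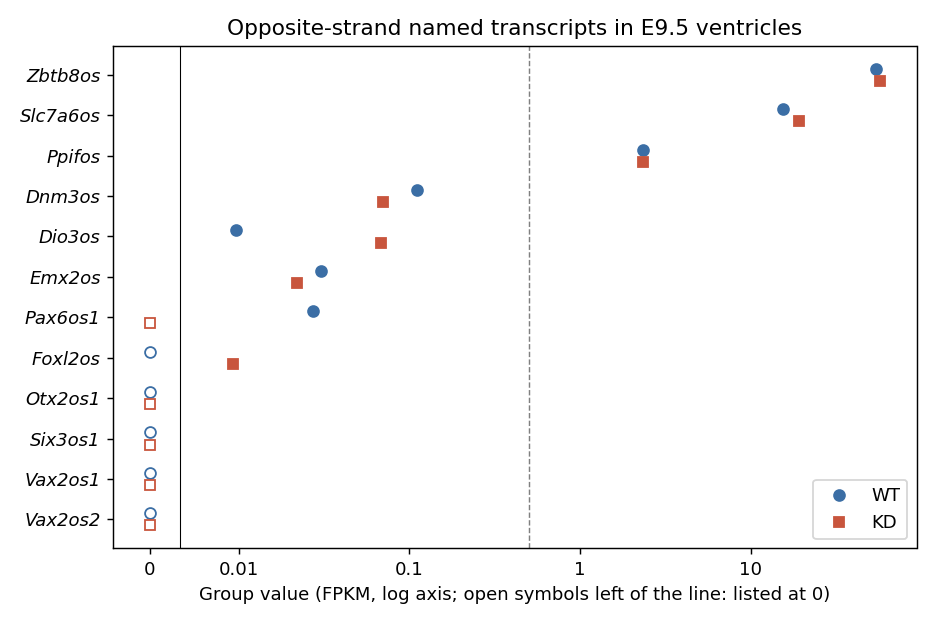
Group value of each opposite-strand named transcript in fpkm on a log axis, 1 value for WT (circles) and 1 for KD (squares), with values listed at 0 as open symbols left of the line. The dashed line is 0.5 fpkm, which Zbtb8os, Slc7a6os and Ppifos exceed, and each group value stands for 3 libraries without a spread.

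Zbtb8os was the most abundant member. Its value was 54.5 fpkm in WT and 57.3 in KD, a ratio of KD to WT of 1.05. Its mean level was at percentile 92.1 of all rows in the table. The row lies at chr4:129336026-129347029. Zbtb8b, a zinc finger gene with a BTB domain, was at 0.385 fpkm in WT and 0.659 in KD. Zbtb8os was thus 141-fold above the gene it is named after in WT and 87.0-fold above it in KD, and the ratio of KD to WT was 1.71 for Zbtb8b. Both group values of Zbtb8b were under 1 fpkm, and the difference did not reach 2-fold. Zbtb8a is the related gene that lies nearer, and in GENCODE its exons share 264 bases with those of Zbtb8os. It was at 4.38 fpkm in WT and 3.31 in KD. Its log2 difference, KD minus WT, was -0.39, while Zbtb8os was higher by 0.073. In the table the row of Zbtb8a lies at chr4:129353632-129378028 and does not overlap that of Zbtb8os. The 264 bases thus lie outside the Zbtb8os row, and its value does not rest on them. Whether reads there come from Zbtb8a alone cannot be told, since the libraries do not keep the strand. The level of Zbtb8os was close to that of Rbbp4, the gene with the facing start, which was at 66.2 fpkm in WT and 63.1 in KD.

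Slc7a6os showed the largest difference among the 3 measurable members. It was at 15.4 fpkm in WT and 19.1 in KD, which is 24.4% higher in KD and 0.31 on the log2 scale after adding 0.1 fpkm. Of all rows with a mean of at least 0.5 fpkm, 24.0% differed between the groups by at least as much in either direction. Slc7a6, which encodes an amino acid transporter, was at 14.3 fpkm in WT and 14.1 in KD, a ratio of 0.988. The pair stood at similar levels, with Slc7a6os at 108% of Slc7a6 in WT and at 136% in KD. Prmt7, on the other side of the shared upstream region shown above, was at 58.5 fpkm in WT and 53.2 in KD and so was 3.80-fold above Slc7a6os in WT and 2.78-fold above it in KD. Prmt7 and Slc7a6os, whose RefSeq starts lie 120 bases apart, therefore stood on opposite sides of no difference, at -0.14 and 0.31 on the log2 scale. The row of Slc7a6os, at chr8:106200438-106210933, shares no exon base with Slc7a6, from which it is separated by 2010 bases in GENCODE, or with Prmt7.

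Ppifos was the only noncoding member above 0.5 fpkm. Its value was 2.33 fpkm in WT and 2.34 in KD, a difference of 0.0050 on the log2 scale. Of the rows with a mean of at least 0.5 fpkm, 98.2% differed by at least as much. Ppif, which encodes cyclophilin D, a regulator of the mitochondrial permeability transition pore, was at 161 fpkm in WT and 151 in KD. Ppifos was thus at 1.45% of the level of Ppif in WT and 1.54% in KD. In GENCODE, 921 of the 1159 exon bases of Ppifos are also exon bases of some Ppif transcript. Only 152 of these lie in exons of protein-coding Ppif transcripts, and 152 are coding bases of Ppif. The others lie in exons of Ppif transcripts that GENCODE does not type as protein coding. Exons 2 and 3 of Ppifos share 55 and 97 bases with the coding sequence of Ppif, and exon 1, printed above, shares none. Smart-Seq2 libraries do not keep the strand, so reads from the shared bases cannot be told apart. How much of the value listed for Ppifos comes from Ppif was not tested, since the table has 1 value for the whole transcript. Both rows are given the same position, chr14:25694170-25701282.

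**Figure D2:**
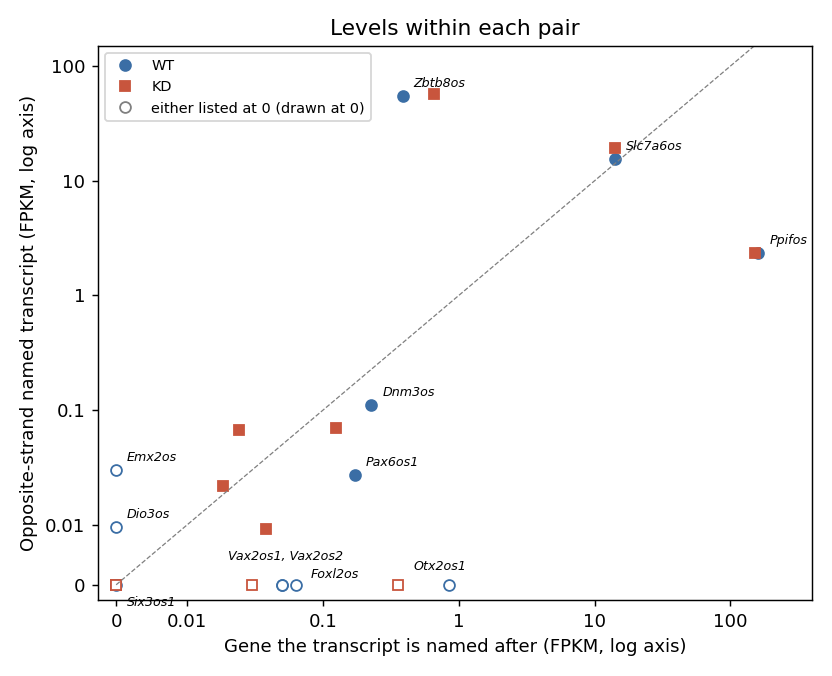
Level of each opposite-strand named transcript against the gene it is named after, both in fpkm on log axes, with 1 point for WT (circles) and 1 for KD (squares) and values listed at 0 drawn at 0 as open symbols. Zbtb8os lies 141-fold (WT) and 87.0-fold (KD) above Zbtb8b, and Slc7a6os lies near the dashed line of equal level. Ppifos lies at 1.45% (WT) and 1.54% (KD) of Ppif. The other pairs reach at most 0.111 fpkm for the transcript and 0.850 fpkm (Otx2 in WT) for the gene.

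Across these 3 members, 0 differed by 2-fold or more, against 2.93% of the 12330 rows with a mean of at least 0.5 fpkm. With 3 members this count is not distinguishable from the background. At 1.5-fold the count was also 0, against 8.68% of all such rows. With no filter and only 0.01 fpkm added, 2 of the 8 members above 0 were past 2-fold, Dio3os and Pax6os1, against 17.5% of all rows above 0. Of all rows with a mean of at least 0.5 fpkm, 51.2% were higher in KD. The 3 measurable members were all higher in KD, by 0.0050 (Ppifos), 0.073 (Zbtb8os) and 0.31 (Slc7a6os) on the log2 scale. Their median log2 difference was 0.073, and the median over all such rows was 0.0061, which is itself larger than the difference of Ppifos. When that median was subtracted, 2 of the 3 were higher in KD. Of the genes they are named after, Ppif and Slc7a6 were lower in KD, at -0.088 and -0.018, and Zbtb8b was higher by 0.64, with a median of -0.018. Without Ppif, whose row shares its position with Ppifos, the median was 0.31. Only the pair of Zbtb8os and Zbtb8b lay on the same side of no difference. With Zbtb8a in place of Zbtb8b, 0 of the 3 pairs did. With Zbtb8b kept and the median over all such rows subtracted, 2 of the 3 did. None of the 3 genes reached 2-fold.

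**Figure D3:**
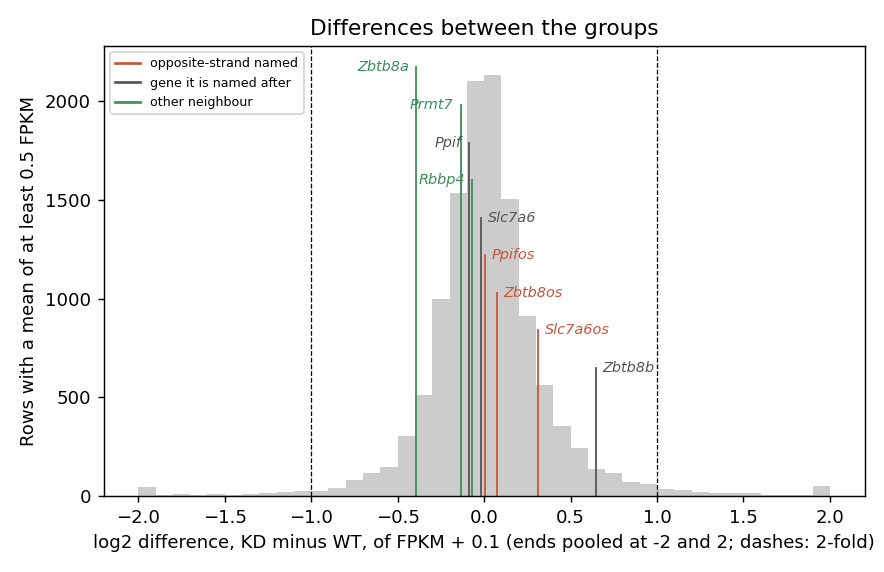
Histogram of the log2 difference, KD minus WT, of fpkm + 0.1 over the 12330 rows with a mean of at least 0.5 fpkm, with values beyond -2 and 2 pooled in the end bars and 2-fold marked by dashes. Lines mark the 3 measurable members (red), the genes they are named after (grey) and their other neighbours (green), none of which reaches 2-fold, and line height has no meaning.

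Dnm3os was the highest of the remaining noncoding rows. It lies inside Dnm3, the gene of the GTPase dynamin 3, and is known as the precursor of 2 miRNAs with roles in mesenchyme and skeleton. It was at 0.111 fpkm in WT and 0.0697 in KD. Dnm3 was at 0.228 fpkm in WT and 0.125 in KD. Both values were lower in KD, and both transcripts are under 0.5 fpkm, so no fold is read from them. The exons of Dnm3os share 0 bases with those of Dnm3. The mature miRNAs are printed from RefSeq with the seed, bases 2 to 8, in capitals, since they are the products Dnm3os is known for, and they lie in its exons at chr1:162217844-162217866, chr1:162217883-162217904, chr1:162223397-162223418 and chr1:162223438-162223459 on the plus strand.
miR-199a-5p: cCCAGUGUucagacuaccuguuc
miR-199a-3p: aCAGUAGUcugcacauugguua
miR-214-5p: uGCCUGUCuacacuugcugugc
miR-214-3p: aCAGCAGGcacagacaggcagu
The 4 seeds differ from each other. The rows of both miRNA genes, Mir199a-2 and Mir214, were listed at 0 in both groups, in libraries that start from polyadenylated RNA. They carry the same position in the table as Dnm3os and Dnm3.

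The 8 head-to-head rows are named after genes that pattern the brain, eye, gonad and other tissues. Otx2, Six3, Pax6, Vax2 and Emx2 encode homeodomain transcription factors of the forebrain and eye, Foxl2 encodes a forkhead factor of the ovary and eyelid, and Dio3 encodes the deiodinase that inactivates thyroid hormone. Among these genes only Otx2 had a mean of at least 0.5 fpkm. Otx2 was at 0.850 fpkm in WT and 0.356 in KD, 2.39-fold lower in KD, where 2.93% of all rows at 0.5 fpkm or more were past 2-fold in either direction. Its log2 difference was -1.06 with 0.1 fpkm added and -0.45 with 1 fpkm added, and its mean is under 1 fpkm, so the call is lost with that pseudocount or with a filter at 1 fpkm. Otx2os1, with an annotated 5′ end 153 bases from one of Otx2, was listed at 0 in both groups. Over the neural tube marker list of 7 genes that includes Otx2, 2 genes reached 0.5 fpkm, 1 (Tubb3) was at least 2-fold higher and 1 (Otx2) at least 2-fold lower in KD, 4 were listed at 0 in both groups, and the summed level was 13.2 fpkm in WT and 27.3 in KD, of which Tubb3 alone made up 26.9 in KD. The part of neighboring tissue in these values was not tested.

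Pax6os1 was at 0.0273 fpkm in WT and listed at 0 in KD, and Pax6 was at 0.171 fpkm in WT and 0.0299 in KD. Both members of this pair were lower in KD, and they carry the same position in the table. Dio3os was at 0.00960 fpkm in WT and 0.0677 in KD, and Dio3 was listed at 0 in WT and was at 0.0241 fpkm in KD. Mir1247, the miRNA gene inside Dio3os, was listed at 0 in both groups. Cuffdiff marked Dio3os and Dio3 as having too few reads to test. At these levels no fold is drawn.

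Emx2os was at 0.0302 fpkm in WT and 0.0220 in KD, with Emx2 listed at 0 in WT and at 0.0182 fpkm in KD. Foxl2os was listed at 0 in WT and was at 0.00921 fpkm in KD, whereas Foxl2 was at 0.0635 fpkm in WT and 0.0383 in KD. In both of these pairs the listed values of the member and the gene differed in opposite directions. Cuffdiff marked both members and both genes as having too few reads to test, so nothing is read from these directions. Vax2 was at 0.0499 fpkm in WT and listed at 0 in KD, with Vax2os1 and Vax2os2 listed at 0 in both groups, and both Six3 and Six3os1 were listed at 0 in both groups. Of the 5 low members above 0, 2 were higher and 3 were lower in KD. Of the 8 genes that the 9 low rows are named after, 7 had a mean under 0.5 fpkm, 2 were higher and 5 lower in KD, and Six3 was at 0 in both.

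The noncoding members were set beside all lncRNA rows. Of 1668 rows that RefSeq lists as lncRNA or antisense RNA, 37.7% were listed at 0 in both groups, and 4 of the 10 noncoding members were. A mean of at least 0.5 fpkm was reached by 22.7% of these rows and by 1 of the 10 noncoding members. Among 20198 protein-coding rows, 21.5% were listed at 0 in both groups and 57.6% had a mean of at least 0.5 fpkm. Of the rows at 0.5 fpkm or more, 8.99% of lncRNA rows differed by 2-fold or more, against 1.95% of protein-coding rows. The median level of these rows was 1.85 fpkm for lncRNA rows and 8.95 fpkm for protein-coding rows, and the part of the lower level in the larger share was not tested. A position that another row also carries was given for 6 of the 12 members and for 18.4% of all rows.

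**Figure D4:**
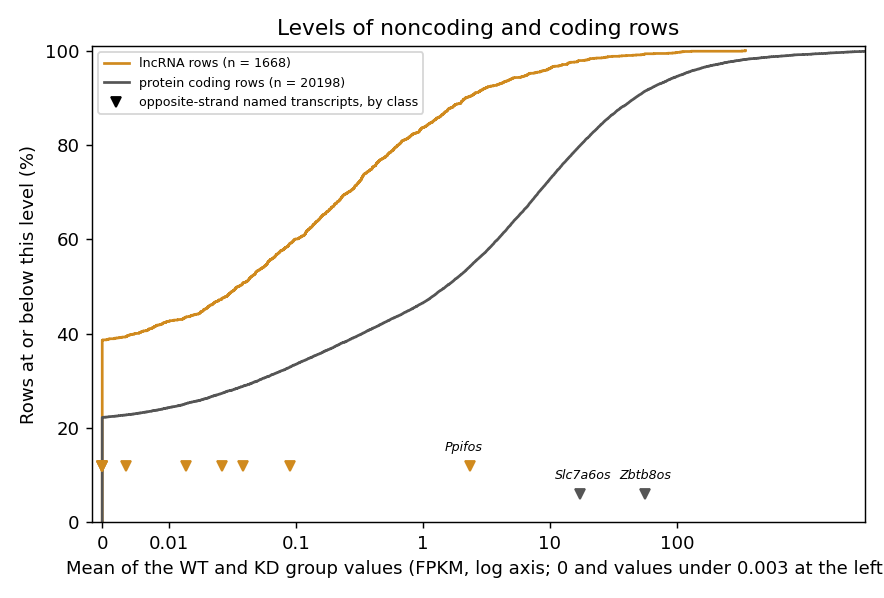
Cumulative share of rows, in %, at or below a mean of the WT and KD values in fpkm on a log axis, for 1668 lncRNA rows (orange) and 20198 protein-coding rows (grey), with 0 and very low values at the left edge. Triangles mark the opposite-strand named transcripts by class, and of the 10 noncoding ones only Ppifos, at 2.33 fpkm, lies above 0.5 fpkm.

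The tissue label was checked against its defining markers. All 10 cardiomyocyte markers were present, from 8.62 fpkm upward, and 0 of them differed by 2-fold. Erythroid and endocardial markers were present too, with 0 of 7 and 0 of 7 past 2-fold. Of 7 epicardial and mesothelial markers, 4 were at least 2-fold higher in KD. Among all rows at 0.5 fpkm or more, 2.93% were past 2-fold in either direction. The summed level of all 7 epicardial and mesothelial markers was 96.8 fpkm in KD against 47.3 fpkm in WT. Of liver bud and yolk sac markers, 2 of 6 reached 0.5 fpkm, with sums of 7.66 fpkm in WT and 10.2 in KD. Of pharyngeal and other mesenchyme markers, 2 of 7 did, with sums of 5.25 and 7.80 fpkm. In both lists 0 were past 2-fold. The part of these markers in the values of the members was not tested. Tbx5 was at 17.2 fpkm in WT and 15.7 in KD. Tbx5ua is not analysed here, and the group labels were therefore not checked against the level of the targeted transcript.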

How the data were processed

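RNA-seq of E9.5 ventricles from 3 WT and 3 KD embryos was analysed. Per the labels, Smart-Seq2 libraries were made from 10 ng of total RNA with 12 preamplification and 9 enrichment PCR cycles, and TopHat, Bowtie2 and Cuffdiff were used with build mm10. Their versions are not given in the sources used here. The authors deposited 1 Cuffdiff table holding, for every gene, 1 FPKM value a group, the KD group under the name KO. The table also holds the authors' log2 fold changes, test scores, p-values and q-values, which were not used. There are 0 columns of single embryos.

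Group values were compared as log2(FPKM + 0.1), which understates differences of low genes. Rows with a mean of at least 0.5 FPKM were kept, and 2-fold was the limit for a call. Named genes were the members past that level, any member past 2-fold at 0.1 FPKM or more, and the genes they are named after; the low members and neighbouring genes were named after their values were seen. The members and lists were chosen with earlier results of these data known. Biotypes came from RefSeq (22971 of 23284 rows matched by symbol or older symbol), arrangement from GENCODE M21, and sequences from RefSeq and GENCODE. Table positions count from 0 and are given with 1 added to the start. Alternatives were other pseudocounts, filters and fold limits, centring on the median, and smaller sets of members; Zbtb8a in place of Zbtb8b, noncoding members alone, a pseudocount of 0.01 without a filter, and the alternatives for Otx2 were chosen after seeing the data. The count of rows past 2-fold was tested on simulated data, which checks its arithmetic and not the error of a group value. Python 3.11.15, NumPy 2.4.6, pandas 2.3.3 and Matplotlib 3.10.9 were used.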

Additional observations from a re-analysis of the deposited data

How the results depend on the processing

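Of the members, 0 were past 2-fold under the alternatives that changed a single choice. The members under 0.5 FPKM could hardly reach 2-fold with 0.1 FPKM added, so these alternatives say little about them. With no filter and a pseudocount of 0.01 together, chosen after seeing the data, 2 members (Dio3os and Pax6os1) were past 2-fold. Without a filter, 8 members were above 0 and 5 of them were higher in KD, their median log2 difference was 0.039, that of the genes they are named after was -0.053 with 1 gene (Pax6) past 2-fold, 4 pairs lay on the same side of 0, and the median log2 level relative to those genes turned to -0.16 from 0.28. Leaving out members with a shared locus left Slc7a6os and Zbtb8os, with medians of 0.19 for the members, 0.31 (reversed from -0.018) for the genes they are named after, and 3.39 for the relative level. Among noncoding members, only Ppifos remained, 1 higher in KD, with a median of 0.0050. With a pseudocount of 1 the median relative level was 0.27, and with 0.01 it was 0.29. At a limit of 1.5-fold, 1 gene (Zbtb8b) was past it. Centring put 2 pairs on the same side of 0 and turned Ppifos to -0.00113 from 0.00500. With Zbtb8a in place of Zbtb8b the median of the genes was -0.088 and 0 pairs lay on the same side. Leaving out the filter, the members with a shared locus or the coding members changed which rows entered, and the fold limit, pseudocount, centring and choice of Zbtb8a changed the limit, the values or the gene compared. The cause was not tested further. No paired analysis was possible because single embryos have no values here, and for the same reason leaving out each replicate was not run. Depth is unknown, which limits what can be said of the 9 members under 0.5 FPKM.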

Other observations

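A related set of rows, chosen after their values were seen, has symbols ending in "as" and is listed as lncRNA or antisense RNA by RefSeq. It held 12 rows, of which 6 had a mean of at least 0.5 FPKM and 1 was past 2-fold, against 2.93% of all rows and 8.99% of lncRNA rows at that level. With 6 rows chosen in this way, nothing is read from that count. That row was Has2as, named after Has2, the hyaluronan synthase of the cardiac jelly. Has2as was at 4.16 FPKM in WT and 1.37 in KD, 3.03-fold lower in KD, while Has2 was at 1.68 FPKM in WT and 1.20 in KD. Msx1as was at 7.99 FPKM in WT and 5.34 in KD, and Msx1, a homeobox gene of the valve-forming mesenchyme, was at 5.60 FPKM in WT and 2.92 in KD. In both pairs the antisense row and the gene were lower in KD. Each of these rows shares its position in the table with its gene, so reads of the overlap cannot be told apart without strand.

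Peg3as was at 57.0 FPKM in WT and 54.8 in KD beside Peg3 at 51.1 and 54.0 FPKM, and Igf2as was at 3.53 FPKM in WT and 4.31 in KD beside Igf2 at 348 and 388 FPKM. Nespas was at 0.770 FPKM in WT and 0.529 in KD. Zfhx2as was at 0.981 FPKM in WT and 1.04 in KD, and Zfhx2 was at 0.640 FPKM in WT and 0.999 in KD, higher in KD by 0.57 on the log2 scale. These values were compared without a test, since the group values carry no spread and the deposited test columns were not used.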
